A study of Mus musculus with 22 samples.

Results

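The 9 genes whose expression was raised by a gamma-secretase inhibitor (GSI) mainly after 10 h of culture were Plxdc2, Adgrl4, Calcrl, Afap1l1, Sdr39u1, Zfp773, Extl3, Tmem141 and Npl. They make up 9 of 22180 genes measured, and they were chosen by measured values, since GSI minus DMSO was clearly larger at 10 h than at 4 h. The differences between GSI and DMSO given below chose the genes, so they are descriptions and carry no test. The samples were haematopoietic stem cells of the fetal liver, from wild-type C57Bl/6J mouse embryos at E14.5. Cells kept for 10 h gave 4 GSI arrays and 4 DMSO arrays, and cells kept for 4 h gave 7 GSI arrays and 7 DMSO arrays. GSI was used at 1 µM, and DMSO, its solvent, was the control. Cells of all 4 groups were cultured on OP9-DL1, a stromal feeder line that carries the Notch ligand Dll1, and were sorted after culture as SLAM LSK cells, a surface phenotype (lineage-negative, Sca-1+ and Kit+, with SLAM family markers) that enriches for stem cells. Each GSI culture had a DMSO partner, per the series' design text, so the longer culture has 4 pairs and the shorter one 7. The labels do not say how many embryos made up a culture.

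Gamma-secretase is the protease that cuts ligand-bound Notch receptors in the membrane and frees their intracellular part, which enters the nucleus and joins the DNA-binding protein RBPJ to switch on target genes. Hes1, a repressor, is the best known of these targets. Gamma-secretase also cuts many membrane proteins other than Notch. At 10 h the Hes1 log2 level was 5.27 ± 0.050 with GSI and 6.62 ± 0.113 with DMSO, and at 4 h it was 7.44 ± 0.904 with GSI and 8.42 ± 0.713 with DMSO (SD). Hes1 was lower with GSI in 4 of 4 pairs at 10 h and in 7 of 7 pairs at 4 h, with differences of -1.36 ± 0.117 and -0.97 ± 0.0884 (SE; limma adjusted p = 4.72e-05 and 0.000199).

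Values are log2 expression values, so a difference of 1 is a 2-fold change, and no value of a gene is set against the value of another, since array probes differ in brightness. Errors of levels are SDs, and errors of differences are standard errors (SE) from the fit to all 22 arrays. That fit shares its spread between the times, so the SEs at 10 h also rest on the 4 h pairs. Array medians lay between 4.45 and 4.52 for the 10 h cultures and between 5.03 and 5.12 for the 4 h cultures. Levels at the 2 times were therefore compared only after quantile normalization over all arrays, or with that offset stated. No detection calls entered the analysis, and precision is set by how many arrays there are. By the description codes, whose meaning is not stated, the 10 h pairs fall into code set 1 (pairs 1 and 2) and code set 2 (pairs 3 and 4), and the 4 h pairs into code set 1 (pair 1), code set 2 (pairs 2 and 3) and code set 3 (pairs 4 to 7). No code set held both times, so comparisons between times were also fitted with the code set as a random block. Each of the 9 genes was read by 1 probe with that symbol alone.

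Promoter sequence was at hand for 6 of the 9 genes (not for Plxdc2, Afap1l1 and Extl3), and 3 are shown, those with a match to more than 1 of the motifs of RBPJ and Hes-type repressors, the Notch-linked factors. The 250 bases before the start site, from RefSeq, were searched on both strands for TGGGAA (the core of RBPJ sites), CACGTG and CACGCG (boxes bound by Hes and related proteins) and CACNAG (the N box). Matches are in capitals, and none overlapped a match to another motif. The windows are those of Adgrl4 (GRCm38.p6, chr3:151437632-151437881, plus strand), Sdr39u1 (GRCm38.p6, chr14:55900233-55900482, minus strand) and Npl (GRCm38.p6, chr1:153549715-153549964, minus strand).
Adgrl4: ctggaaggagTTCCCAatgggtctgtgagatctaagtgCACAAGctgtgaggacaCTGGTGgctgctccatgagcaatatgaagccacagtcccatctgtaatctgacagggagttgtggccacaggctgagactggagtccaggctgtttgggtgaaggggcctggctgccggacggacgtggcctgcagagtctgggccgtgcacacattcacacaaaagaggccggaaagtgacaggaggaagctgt
Sdr39u1: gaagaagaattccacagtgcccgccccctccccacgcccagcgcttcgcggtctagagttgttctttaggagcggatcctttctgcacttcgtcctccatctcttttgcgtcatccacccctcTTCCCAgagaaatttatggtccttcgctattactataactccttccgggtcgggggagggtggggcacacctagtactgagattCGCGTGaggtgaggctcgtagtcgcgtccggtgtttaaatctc
Npl: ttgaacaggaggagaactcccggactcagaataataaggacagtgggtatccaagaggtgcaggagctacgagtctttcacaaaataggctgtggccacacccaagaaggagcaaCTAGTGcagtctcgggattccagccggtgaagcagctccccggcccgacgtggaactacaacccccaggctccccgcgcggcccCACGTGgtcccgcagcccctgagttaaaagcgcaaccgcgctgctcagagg
A match on the other strand shows as its reverse complement, so TGGGAA may stand as TTCCCA. Adgrl4 held TGGGAA once and CACNAG 2 times. Sdr39u1 held TGGGAA once and CACGCG once. Npl held CACGTG once and CACNAG once. Zfp773 had 1 match to CACNAG, and the windows of Calcrl and Tmem141 had none of the 4 motifs. Over 32851 mouse promoter windows of the same length, TGGGAA was in 21.6%, CACGTG in 6.02%, CACGCG in 7.62% and CACNAG in 36.7%, and 57.0% held at least 1 of the 4. A match describes letters, not a bound site.

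The genes of the cell surface and the cytoskeleton come first. Plxdc2 (Entrez 67448, chromosome 2) encodes a single-pass receptor-like protein that carries a plexin repeat. At 10 h its log2 level was 8.03, 7.61, 7.75 and 7.23 with GSI and 5.02, 5.51, 5.63 and 5.46 with DMSO in pairs 1 to 4. Every GSI array stood above every DMSO array. The mean difference was 2.25 ± 0.193 (SE, n = 4 pairs, 4.75-fold), made up of 3.01, 2.10, 2.12 and 1.77 in pairs 1 to 4. Of all 22180 genes it had the largest GSI minus DMSO at 10 h and the largest excess over 4 h. Plxdc2 also had the largest positive value of the 9 at 4 h, 0.49 ± 0.146 (SE, n = 7 pairs), with values of -0.01, 1.12, 0.61, 0.67, 0.73, 0.14 and 0.14 in pairs 1 to 7. It was higher with GSI in 6 of 7 pairs there, and the exception was pair 1, the only pair of its code set. The 4 h levels ran from 5.14 to 7.83 (median 6.21) with GSI and from 5.001 to 6.70 (median 6.17) with DMSO, so the groups overlapped.

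Adgrl4 (Entrez 170757, chromosome 3), also called Eltd1, encodes an orphan adhesion G protein-coupled receptor best known from blood vessels. Its level at 10 h was 10.89, 10.98, 10.92 and 10.73 with GSI and 9.98, 10.56, 10.24 and 9.91 with DMSO. The GSI arrays lay within a narrow band above all DMSO arrays. The difference was 0.71 ± 0.0699 (1.64-fold), with 0.91, 0.42, 0.69 and 0.82 in pairs 1 to 4. At 4 h the difference was 0.12 ± 0.0528, positive in 6 of 7 pairs but at most 0.28. GSI arrays ran from 10.85 to 11.24 (median 10.95) and DMSO arrays from 10.67 to 11.25 (median 10.72) at that time, which overlapped.

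Calcrl (Entrez 54598, chromosome 2) encodes the calcitonin receptor-like receptor, which pairs with RAMP proteins to bind the peptides CGRP and adrenomedullin. At 10 h it read 9.79, 9.95, 9.45 and 9.49 with GSI and 9.02, 9.53, 9.17 and 8.84 with DMSO. The groups overlapped across pairs, since DMSO in pair 2 was above GSI in pairs 3 and 4, but GSI was higher within each pair. The within-pair values were 0.77, 0.41, 0.27 and 0.65, with a mean of 0.53 ± 0.0752 (1.44-fold), the smallest of the 9. At 4 h the mean was 0.00677 ± 0.0569, and the pairs ran from -0.17 to 0.14. GSI arrays at 4 h ran from 10.52 to 10.90 (median 10.70) and DMSO arrays from 10.59 to 10.89 (median 10.69), nearly the same range.

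Afap1l1 (Entrez 106877, chromosome 18) encodes an adaptor protein that binds actin filaments. The 10 h levels were 7.30, 7.68, 7.27 and 7.27 with GSI and 6.21, 7.14, 6.66 and 6.61 with DMSO. All GSI arrays were above all DMSO arrays, and pair 2 was the highest in both groups. The difference was 0.73 ± 0.107 (1.65-fold), with 1.09, 0.54, 0.61 and 0.66 in pairs 1 to 4. At 4 h it was 0.07 ± 0.0811. The 4 h arrays ran from 7.78 to 8.56 (median 8.08) with GSI and from 7.67 to 8.27 (median 8.07) with DMSO, which overlapped.

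Enzymes of sugar and redox chemistry make up the next set. Extl3 (Entrez 54616, chromosome 14) encodes a glycosyltransferase that starts and extends heparan sulphate chains. At 10 h it read 6.31, 6.5996, 7.10 and 6.64 with GSI and 5.13, 5.76, 6.40 and 5.51 with DMSO, and the DMSO array of pair 3 was above the GSI array of pair 1. Within pairs GSI was higher by 1.18, 0.84, 0.70 and 1.13, with a mean of 0.96 ± 0.13 (1.95-fold). At 4 h the mean was 0.06 ± 0.0981, with pair values from -0.39 to 0.45. The 4 h levels, 5.33 to 7.51 (median 6.69) with GSI and 5.36 to 7.08 (median 6.75) with DMSO, overlapped, and pair 6 was lowest in both groups.

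Npl (Entrez 74091, chromosome 1) encodes the lyase that splits sialic acid, the terminal sugar of many cell surface glycans. Its 10 h level was 7.02, 7.44, 6.96 and 7.19 with GSI and 5.69, 6.24, 6.83 and 6.32 with DMSO. Every GSI array was above every DMSO array, but the within-pair values of 1.33, 1.20, 0.13 and 0.87 were uneven, and pair 3 differed little. The mean was 0.88 ± 0.157 (1.84-fold), and it was 1.27 in code set 1 and 0.498 in code set 2. At 4 h the mean was -0.11 ± 0.119, with GSI higher in 2 of 7 pairs. The 4 h levels were 7.10 to 8.70 (median 7.31) with GSI and 7.27 to 8.77 (median 7.55) with DMSO, and both arrays of pair 6 stood far above the rest.

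Sdr39u1 (Entrez 654795, chromosome 14) encodes a short-chain dehydrogenase whose substrate is little known. At 10 h the levels were 7.24, 7.03, 7.55 and 7.60 with GSI and 5.90, 6.21, 6.72 and 6.24 with DMSO, again with no overlap. The mean difference was 1.09 ± 0.132 (2.13-fold), from 1.34, 0.81, 0.83 and 1.36 in pairs 1 to 4, with means of 1.08 in code set 1 and 1.10 in code set 2. At 4 h it was -0.03 ± 0.0997, positive in 3 of 7 pairs. The 4 h arrays ran from 6.78 to 8.42 (median 7.75) with GSI and from 7.07 to 8.70 (median 7.61) with DMSO.

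The last 2 genes encode proteins of little known function. Zfp773 (Entrez 76373, chromosome 7) encodes a zinc finger protein. It read 5.14, 4.89, 5.23 and 4.48 with GSI and 3.95, 3.89, 4.73 and 3.08 with DMSO at 10 h, where the DMSO arrays overlapped the GSI arrays through pairs 3 and 4. Within pairs GSI was higher by 1.19, 1.00, 0.50 and 1.40, with a mean of 1.02 ± 0.151 (2.03-fold). At 4 h the sign was the opposite: GSI was lower in 7 of 7 pairs, with a mean difference of -0.30 ± 0.114, and 0.807% of all genes were lower in every pair. In pairs 1 to 7 these values were -0.46, -0.0047, -0.07, -0.18, -0.32, -0.20 and -0.90, and pair 7 was farthest from 0. The 4 h levels were 3.80 to 5.08 (median 4.70) with GSI and 4.00 to 5.26 (median 4.86) with DMSO, and the groups overlapped. Its DMSO arrays of pairs 1, 2 and 4 at 10 h lay below the median of their arrays. At 4 h so did all of its GSI arrays, and its DMSO arrays other than those of pairs 1 and 4.

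Tmem141 (Entrez 51875, chromosome 2) encodes a small membrane protein. It read 5.73, 5.44, 5.35 and 4.62 with GSI and 4.43, 4.41, 4.39 and 3.89 with DMSO at 10 h. All GSI arrays were above all DMSO arrays, pair 4 was lowest in both groups, and 4 of 4 DMSO arrays lay below the median of their array. The difference was 1.01 ± 0.136 (2.01-fold), from 1.30, 1.03, 0.96 and 0.73 in pairs 1 to 4. At 4 h it was -0.00735 ± 0.103, with 4 of 7 pairs positive. GSI arrays then ran from 5.37 to 6.54 (median 5.79) and DMSO arrays from 5.36 to 6.67 (median 5.94).

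**Figure D1:**
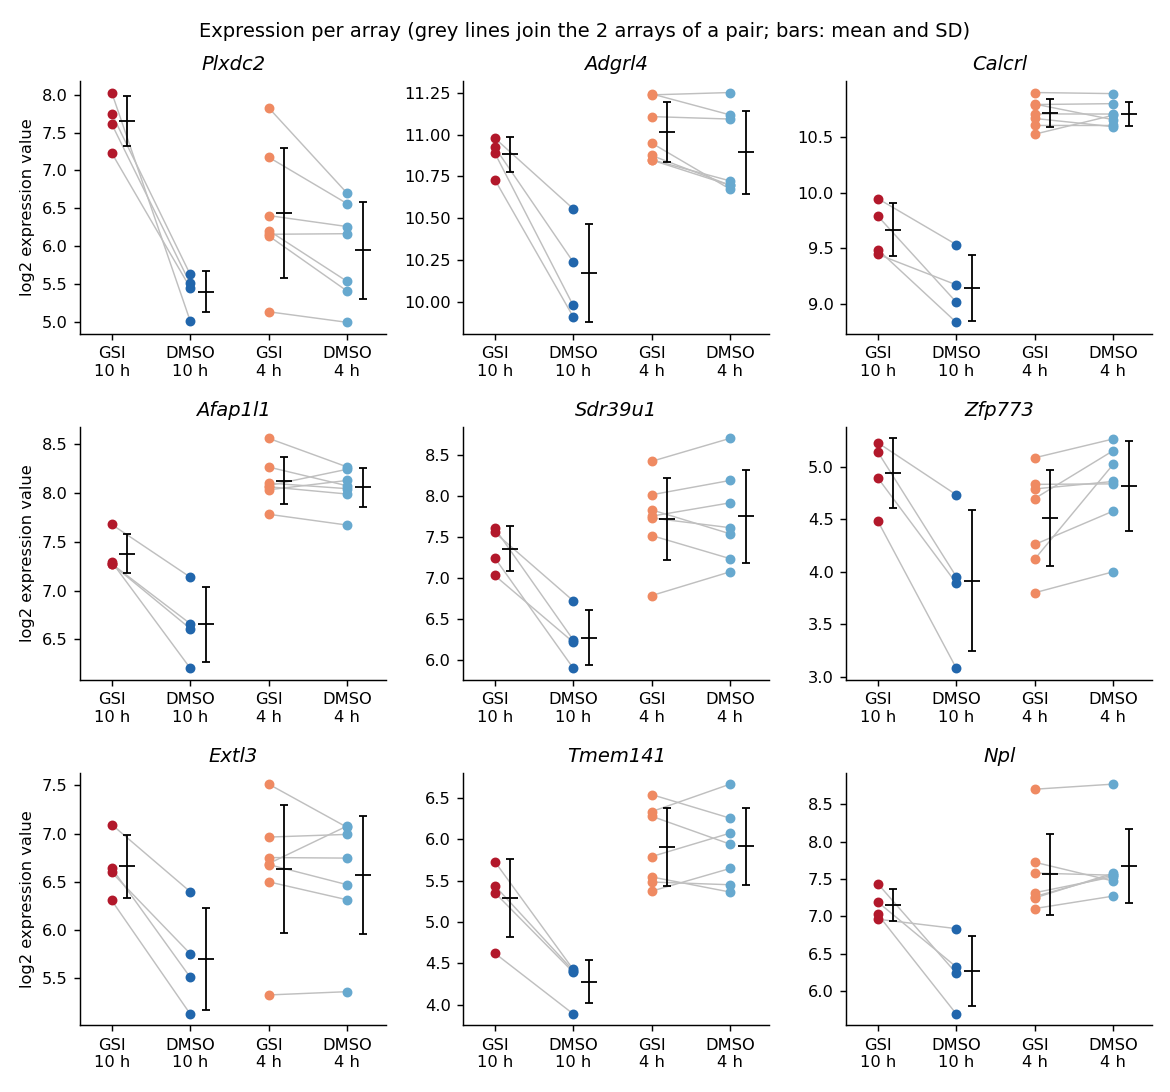
Log2 expression value (vertical axes, own scale for each gene) of the 9 genes on each array, by group; grey lines join the GSI and DMSO arrays of a pair, and black bars give the mean and SD. At 10 h the GSI arrays stand above all DMSO arrays for 6 genes and overlap them for Calcrl, Zfp773 and Extl3, and at 4 h the groups overlap for all 9.

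Set side by side, the 9 genes were called higher at 10 h by limma in 9 of 9 cases, where 0.555% of all genes were called higher, and 0 of 9 were called at 4 h, where 0.00451% of all genes were called in either direction. The choice of genes fixes these counts, so nothing is read from them. For the same reason the 4 of 9 called for the difference between times (0.018% of all genes called) are only a description: these were Plxdc2, Adgrl4, Sdr39u1 and Zfp773. Every GSI array was above every DMSO array for 6 of 9 genes at 10 h, against 1.41% of all genes, and for 0 of 9 at 4 h, against 0.0271%. In 8 of 9 genes the smallest within-pair value at 10 h was above the largest at 4 h, and the exception was Npl, through pair 3. The choice of genes favours that count too. Its share over all genes was not computed, so nothing is read from it. The 9 genes did not share a size of response at 4 h: the mean was above 0 for 5 and below it for the other 4.

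The size of the difference varied between the 10 h pairs. The mean of the 9 genes was 1.35 in pair 1, 0.929 in pair 2, 0.756 in pair 3 and 1.04 in pair 4, and 7 of the 9 genes had their largest value in pair 1. Sdr39u1 and Zfp773 had theirs in pair 4. At 4 h the mean of the 9 was between -0.18 (pair 1) and 0.215 (pair 2). Pair 1 of the 10 h set also had the largest mean of 26 stem cell markers (0.739, against 0.316, 0.2 and 0.322 in pairs 2 to 4). Markers of the OP9 feeder, 22 of them measured, had a mean of 0.0971 in that pair, against -0.706, -0.679 and -0.519 in pairs 2 to 4. Endothelial markers, 20 of them, had a mean of 0.363 in pair 1, against -0.211, -0.121 and -0.0919 in pairs 2 to 4. These pair values share their arrays with the 9 genes, and their part in the differences was not tested.

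**Figure D2:**
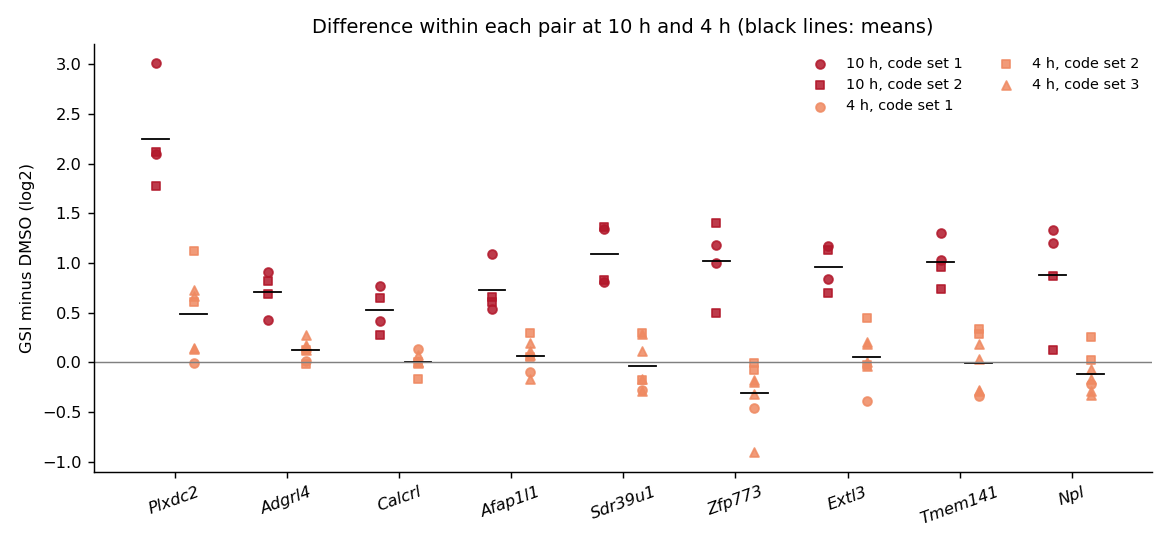
GSI minus DMSO (log2, vertical axis) within each pair for the 9 genes, with dark red symbols for 10 h, orange symbols for 4 h, a symbol shape for each code set and black lines for means. The 10 h values are above 0 in 4 of 4 pairs for every gene, while the 4 h values lie around 0 for 6 genes, above it in 6 of 7 pairs for Plxdc2 and, by less, for Adgrl4, and below it in 7 of 7 pairs for Zfp773.

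The rule left many similar genes outside the list. In all, 1878 genes (8.47%) were higher with GSI in 4 of 4 pairs at 10 h, and 181 of these exceeded 4 h by at least as much as Calcrl, the lowest of the 9 at 0.52 ± 0.0943 (SE). Among the 9 genes the excess of 10 h over 4 h ran from that value to 1.76 ± 0.242 for Plxdc2. The 5 other genes with the largest excess among those higher in 4 of 4 pairs were Rps15 (1.37 ± 0.301), Mir3097 (1.29 ± 0.394), Zfp932 (1.05 ± 0.326), Zdhhc15 (1.03 ± 0.27) and Slc25a14 (0.97 ± 0.205). Their errors were larger than those of the 9, whose SEs lay between 0.0876 and 0.242, except that Slc25a14 was inside that range. All 9 genes were among the 20 with the smallest p for this difference, but Npl was at rank 12 and Afap1l1 at rank 15. Genes outside the list therefore stood ahead of these. The first of them were Dsn1 (0.91 ± 0.169) and Csf3r (0.87 ± 0.165), which were chosen after their values were seen.

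The comparison between times that the choice did not use directly is that of pair means, the average of the GSI and DMSO array of each pair. It asks whether a gene was at another level at 10 h than at 4 h whatever the treatment. High GSI values and low DMSO values at 10 h both enlarge the difference that chose the genes. The choice can thus move the pair mean at 10 h up or down. A rise is given without a test, and the calls of a fall are not free of the choice. After quantile normalization the pair means of 45.5% of all genes differed between times (limma, adjusted p under 0.05), 25.7% higher and 19.8% lower at 10 h, so a call is close to the common case. Of the 9 genes 2 were called lower.

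Calcrl was lower at 10 h by a wide margin, with a pair-mean change of -0.94 ± 0.0950 (SE, 4 pairs at 10 h and 7 at 4 h, limma adjusted p = 2.52e-05), and stayed called lower under every setting tried, from -1.30 with the values as deposited to -0.63 with each array centred on its median. Afap1l1 had a change of -0.47 ± 0.138 (limma adjusted p = 0.015), and missed the threshold without pair 1 of 10 h (-0.40, adjusted p = 0.0545). Its change was -0.19 on GSI arrays and -0.75 on DMSO arrays, so it lay mostly on the DMSO arrays that helped choose it. For Calcrl these values were -0.73 and -1.14. With the code set as a random block both were called (limma adjusted p = 7.91e-05 for Calcrl and 0.0302 for Afap1l1). Plxdc2 had a change of 0.996 ± 0.314, which is made up of 1.81 on GSI arrays and 0.18 on DMSO arrays and so is mostly the difference that chose it. For the other 6 genes the changes lay between -0.48 for Tmem141 and 0.32 for Zfp773, and those below 0 had limma adjusted p-values from 0.116 for Tmem141 to 0.404 for Npl. With the values as deposited, where the median of all genes was -0.414, Adgrl4, Sdr39u1, Tmem141 and Npl were called lower. On that scale 15131 of all 22180 genes were called lower, so such a call is the common case and nothing is read from it.

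Endothelial markers were lower at 10 h, as Calcrl and Afap1l1 were, while Adgrl4 had a change of -0.13 ± 0.122 (limma adjusted p = 0.395). After quantile normalization 19 of 20 such markers were called lower at 10 h in pair means (median -1.74), and their mean level was 6.16 to 7.23 on GSI arrays and 6.31 to 7.44 on DMSO arrays at 10 h. At 4 h it was 7.26 to 9.59 on GSI arrays and 7.22 to 9.59 on DMSO arrays. Of the hepatocyte markers 9 of 13 were called lower (median -2.24), of the OP9 markers 10 of 22 (median -0.93) and of the macrophage markers 8 of 15 (median -0.557), while none of these 4 lists had a gene called higher. Over all genes 19.8% were called lower and 25.7% higher. Falls were not particular to these lists. Of 14 actin adaptor and podosome genes 8 were called lower and 0 higher (median -0.435). Of 26 stem cell markers 8 were called lower and 3 higher (median -0.262). Of 9 erythroid markers 0 were called lower and 3 higher (median 0.589). No cell type marker was at 0 signal, since the array gives a value for every probe, so none could be called absent. In sorted bulk samples fewer cells of a type and less RNA per cell cannot be told apart. Calcrl, Adgrl4 and Afap1l1 are also known from endothelial cells, and the part of these cells in their level was not tested.

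Seen by treatment, most of the 9 genes differed between times mainly on the DMSO arrays. After quantile normalization the GSI mean at 10 h was above that at 4 h for 7 of 9 genes and the DMSO mean was below that at 4 h for 8 of 9, against medians over all genes of 0.0421 in GSI and 0.04 in DMSO. Tmem141 differed by 0.09 between times on GSI arrays and by -1.06 on DMSO arrays. Sdr39u1 differed by 0.19 on GSI arrays and by -0.81 on DMSO arrays, and Npl by 0.20 on GSI arrays and -0.71 on DMSO arrays. Adgrl4 differed by 0.10 on GSI arrays and by -0.36 on DMSO arrays. In these 4 genes, on this scale, the 10 h level with GSI lay close to the 4 h level, and the 10 h level with DMSO lay below it. That form turns for Adgrl4 with each array centred on its median (0.55 on GSI arrays and -0.06 on DMSO arrays), and as deposited Tmem141 differed by -0.62 on GSI arrays and -1.63 on DMSO arrays.

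Plxdc2 and Zfp773 showed another form. Plxdc2 differed by 1.81 between times on GSI arrays and by 0.18 on DMSO arrays. After quantile normalization each of its GSI arrays at 10 h was above all arrays of 4 h, but narrowly. The lowest read 7.60 (pair 4), against 7.55 for GSI in pair 2 of 4 h. As deposited this did not hold, since GSI in pair 2 of 4 h (7.83) was above GSI in pairs 2, 3 and 4 of 10 h (7.61, 7.75 and 7.23). Zfp773 differed by 1.06 on GSI arrays and by -0.42 on DMSO arrays, and Extl3 by 0.68 on GSI arrays and -0.17 on DMSO arrays. Calcrl was lower at 10 h with either treatment, with -0.73 on GSI arrays and -1.14 on DMSO arrays, and Afap1l1 by -0.19 on GSI arrays and -0.75 on DMSO arrays. These values depend on the scaling: as deposited, GSI arrays were higher at 10 h for 3 of 9 genes (Plxdc2, Zfp773 and Extl3) and DMSO arrays lower for 9 of 9, with medians over all genes of -0.419 in GSI and -0.411 in DMSO. With each array centred on its median, Calcrl and Afap1l1 alone were lower on GSI arrays (-0.36 and -0.06), and Plxdc2 alone was higher on DMSO arrays (0.12), with medians over all genes of 0.265 in GSI and 0.252 in DMSO. The DMSO and GSI arrays are those that chose the genes, so no test was made.

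**Figure D3:**
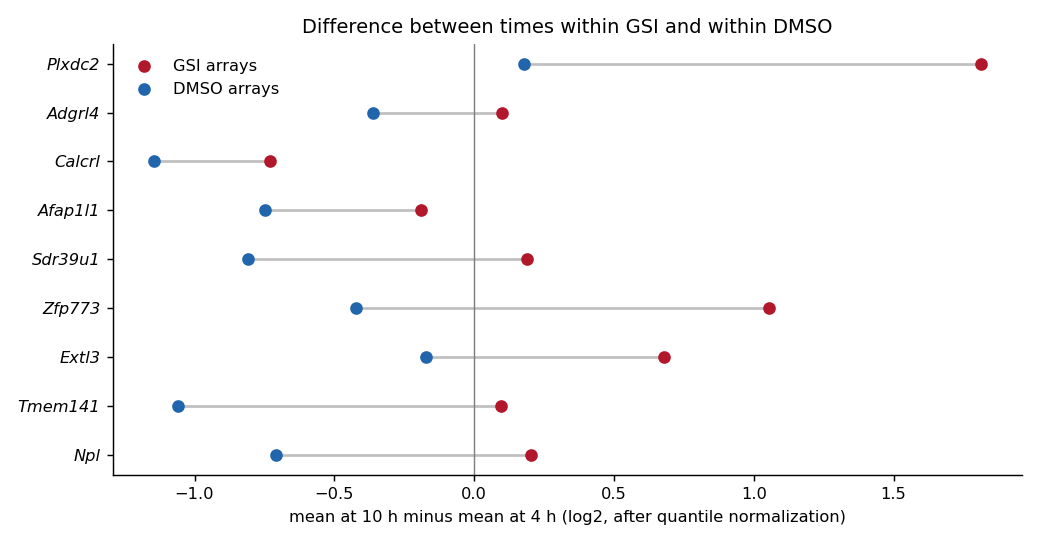
Mean at 10 h minus mean at 4 h (log2, after quantile normalization, horizontal axis) of the 9 genes on GSI arrays (red) and on DMSO arrays (blue). Plxdc2 and Zfp773 lie at 1.81 and 1.06 on GSI arrays, while Tmem141, Sdr39u1 and Npl lie near 0 on GSI arrays and between -1.06 and -0.71 on DMSO arrays.

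How the 9 genes varied apart from treatment and time was described by each array's deviation from the mean of its group. These deviations hold the spread of the within-pair differences, which enters the SE of the differences that chose the genes. They are therefore not independent of the choice. Over 22 arrays the 36 gene pairs had a median Pearson's r of 0.399, and 27 were above 0; the median of the 9 genes with all other genes was -0.0438. The arrays fall into pairs and sets with a shared code, so these points are not independent and no p is given. Sdr39u1 and Extl3, both on chromosome 14, had the highest r (0.756), followed by Plxdc2 and Extl3 (0.751) and by Adgrl4 and Tmem141 (0.702). That order rests on pair 6 at 4 h: without it the r of these gene pairs was 0.556, 0.529 and 0.678. Calcrl and Afap1l1 (0.614) went together and each had low r with Sdr39u1 and Extl3, between -0.105 and 0.0998. Npl stood apart, with r from -0.483 (with Extl3) to 0.391 (with Afap1l1). That rests on pair 6 at 4 h, whose arrays were high for Npl: without it r with Extl3 was 0.556 and with Plxdc2 0.507, 35 of 36 gene pairs were above 0, and the median was 0.34.

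**Figure D4:**
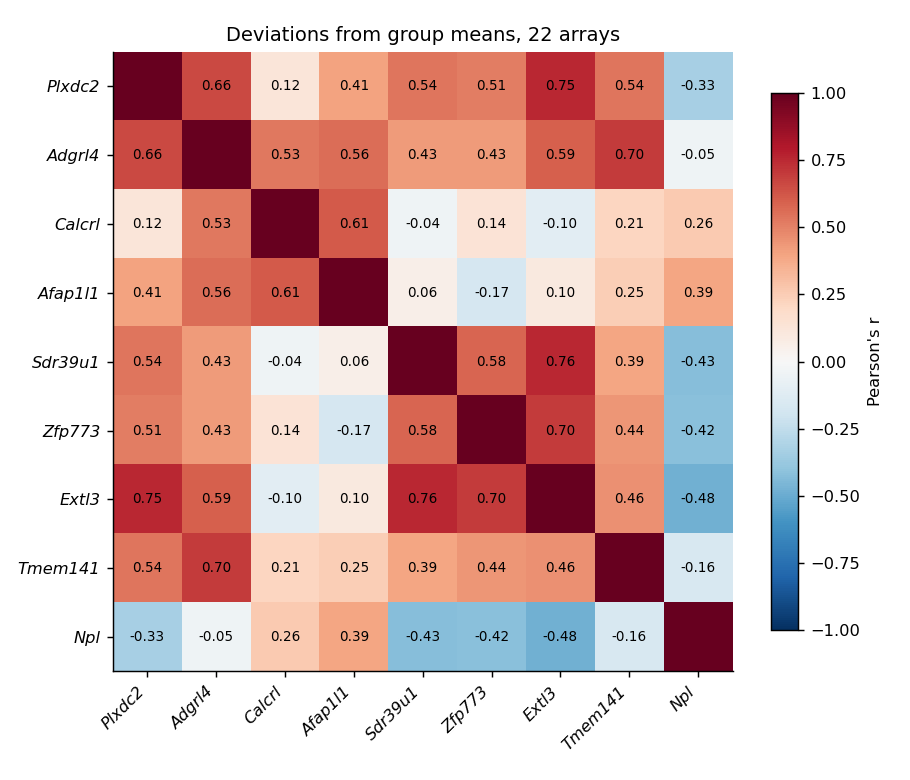
Pearson's r between the 9 genes over 22 arrays, computed on deviations from group means (colour scale from -1 in blue to 1 in red, values printed in each cell). Plxdc2, Adgrl4, Sdr39u1, Zfp773, Extl3 and Tmem141 are all positive with each other, and Npl is negative with 6 of the other genes, which turns without pair 6 of 4 h.

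Genes most like the 9 were found by the same measure. Over 22 arrays the closest gene was Armc10 for Plxdc2 (r = 0.937), Ttyh3 for Adgrl4 (0.912), C130046K22Rik for Calcrl (0.816), Gpr183 for Afap1l1 (0.8) and Ebi3 for Sdr39u1 (0.915). For the others it was Sdhd for Zfp773 (0.878), Fut8 for Extl3 (0.941), Rtn3 for Tmem141 (0.832) and Abhd6 for Npl (0.885). At 10 h 0 of these 9 genes passed, which is near the 0.667% of all genes that did, with differences from -0.13 for C130046K22Rik to 0.56 for Ebi3 (limma adjusted p = 0.0952) and adjusted p-values for the rest from 0.0865 for Fut8 to 0.703 for Armc10. The genes closest to the mean of the 9 were Cln3 (r = 0.942), Zer1 (0.933) and H13 (0.92). Of these 3 genes H13 rose with GSI at 10 h (0.51 ± 0.0866, limma adjusted p = 0.0191), and Cln3 (0.46) and Zer1 (0.28) did not pass.

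Relatives and partners of the 9 genes were near the background of all genes. Over 8 lists of families and pathways, 156 measured genes other than the 9 had a median of -0.0197 at 10 h, against -0.0145 over all genes. With limma, 0 of the 156 passed at 10 h (0.667% of all genes did), at 4 h (0.00451%) or for the difference between times (0.018%), counts near those shares. At an unadjusted p under 0.05 there were 25 at 10 h (16.0%, against 14.1% of all genes), 7 at 4 h (4.21% of all genes) and 18 for the difference (9.36% of all genes).

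Plxdc1, the close relative of Plxdc2, differed by -0.02 ± 0.112 at 10 h, and the 15 plexins and partners had a median of 0.0303. Among 26 other adhesion receptors, with a median of -0.0353, Adgrg1, a receptor also found on stem cells, had the highest value (0.54 ± 0.126, 4 of 4 pairs, limma adjusted p = 0.0653). The latrophilins Adgrl1, Adgrl2 and Adgrl3, which share the Adgrl name with Adgrl4, differed by 0.35, -0.09 and -0.15. Of the RAMP proteins that make Calcrl a working receptor, Ramp1 differed by 0.53 ± 0.145 (3 of 4 pairs, limma adjusted p = 0.103), Ramp2 by 0.05 and Ramp3 by -0.06. Adm, which encodes adrenomedullin, differed by -0.16, and Arrb1, an arrestin, by -0.48 (lower in 4 of 4 pairs, limma adjusted p = 0.102). The 14 measured genes of that list had a median of -0.121.

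Afap1 and Afap1l2, the other members of the Afap1l1 family, differed by -0.08 and 0.05, and 14 actin adaptor and podosome genes had a median of -0.0551, with 0.49 for the actin regulator Was. In heparan sulphate synthesis, 26 genes had a median of -0.0676. There the polymerase genes Ext1 and Ext2 differed by -0.28 and 0.30, Extl2 by 0.16 and the epimerase gene Glce by 0.48 (4 of 4 pairs, limma adjusted p = 0.0848). Sialic acid genes (17, median 0.0761) included Gne, the entry enzyme of synthesis, at 0.08 and the phosphatase gene Nanp at -0.46. Other short-chain dehydrogenases (22, median 0.0378) reached 0.50 in Dhrs3, and 23 other zinc finger genes (median 0.0278) reached 0.64 in Zfp418. None of these had an adjusted p under the threshold.

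The nearest measured gene on each side gave 18 neighbours, of which 0 passed at 10 h with limma (0.667% of all genes did) and 3 had an unadjusted p under 0.05 (14.1% of all genes did), with a median of 0.0634. Both counts are near the background. Zfp418, next to Zfp773, had the highest value (0.64 ± 0.199, 3 of 4 pairs, limma adjusted p = 0.15). The non-coding gene 4930555A03Rik beside Adgrl4 differed by 0.35 ± 0.155 (4 of 4 pairs, limma adjusted p = 0.323), and Tfpi beside Calcrl by 0.27 ± 0.115 (4 of 4 pairs, limma adjusted p = 0.295). Khnyn overlaps Sdr39u1 in the gene table and differed by 0.25 (limma adjusted p = 0.607). Whether the array's probes tell the strands of those 2 genes apart was not examined.

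Stem cell markers held genes that rose at 10 h. Of 26 measured markers 7 rose and none fell, against 0.555% of all genes higher and 0.113% lower, and the median was 0.378: Flt3 (1.28), Hoxa9 (1.02), Mecom (0.82), Hlf (0.73), Erg (0.58), Fli1 (0.56) and Mllt3 (0.54), with limma adjusted p-values from 0.00373 to 0.0495. Except for Flt3, these are transcriptional regulators. Flt3, the largest of the 7, is a receptor of early progenitors and so not a marker of stem cells alone. Values were above 0 for 23 of the 26 markers. The lowest was Ifitm1 (-0.54, lower in 4 of 4 pairs, limma adjusted p = 0.21). The count of 7 called higher fell to 1 without pair 1 of 10 h, to 2 without pair 4 of 10 h, and to 3 without pair 2, 3, 5 or 7 of 4 h. It was 1 with the spread set by time and after quantile normalization, 2 after cyclic loess, 0 without the pair block and in either code set alone, and 0 with the 10 h arrays alone, where limma gave 15 of the 26 an unadjusted p under 0.05. After quantile normalization the mean level of the list was 7.54 to 7.79 on GSI arrays and 7.10 to 7.49 on DMSO arrays at 10 h, and 6.97 to 7.95 on GSI arrays and 7.02 to 7.85 on DMSO arrays at 4 h. The median difference of the list stayed between 0.313 and 0.472 in all fits that left out a pair.

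The other marker lists held no gene called higher. Endothelial markers had a median of 0.032 with 0 of 20 passing. With limma 11 of the 20 had an unadjusted p under 0.05, against 14.1% of all genes. Values went both ways, with 11 of 20 above 0, so the median near 0 does not describe single genes. They ran from -0.73 for Lyve1 to 0.48 for Eng (limma adjusted p = 0.0559 for each), and Esam stood in both this and the stem cell list. OP9 stromal markers had a median of -0.277, and 2 of 22 fell, the fatty acid carrier gene Fabp4 (-2.05 ± 0.446, limma adjusted p = 0.0495) and Cd248 (-1.33 ± 0.27, limma adjusted p = 0.0391). Both calls were lost without pair 1, 3 or 4 of 10 h (adjusted p = 0.0911, 0.0774 and 0.110 for Fabp4, and 0.108, 0.0890 and 0.151 for Cd248), and without pair 2, 3, 4, 5 or 7 of 4 h. They were also lost with the spread set by time (adjusted p = 0.132 for Fabp4 and 0.137 for Cd248), without the intensity trend (0.0764 and 0.0578) and after quantile normalization (0.0893 and 0.0625). Fabp4 alone missed the limma threshold without pair 1 or 6 of 4 h (adjusted p = 0.0533 and 0.0731) and after cyclic loess (0.0724). Of 20 other settings, 17 lost the Fabp4 call and 14 that of Cd248. The Fabp4 difference was -1.18 without pair 4 of 10 h, -0.76 in code set 1 and -3.33 in code set 2, and that of Cd248 was -0.74 in code set 1 and -1.93 in code set 2. Macrophage markers had a median of -0.182, hepatocyte markers of -0.0105 and erythroid markers of -0.157, and 0 of 15, 0 of 13 and 0 of 9 passed. At an unadjusted p under 0.05 with limma there were 6, 0 and 1, against 14.1% of all genes. Of 15 Notch targets Hes1 alone passed (-1.36 ± 0.117, limma adjusted p = 4.72e-05).

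**Figure D5:**
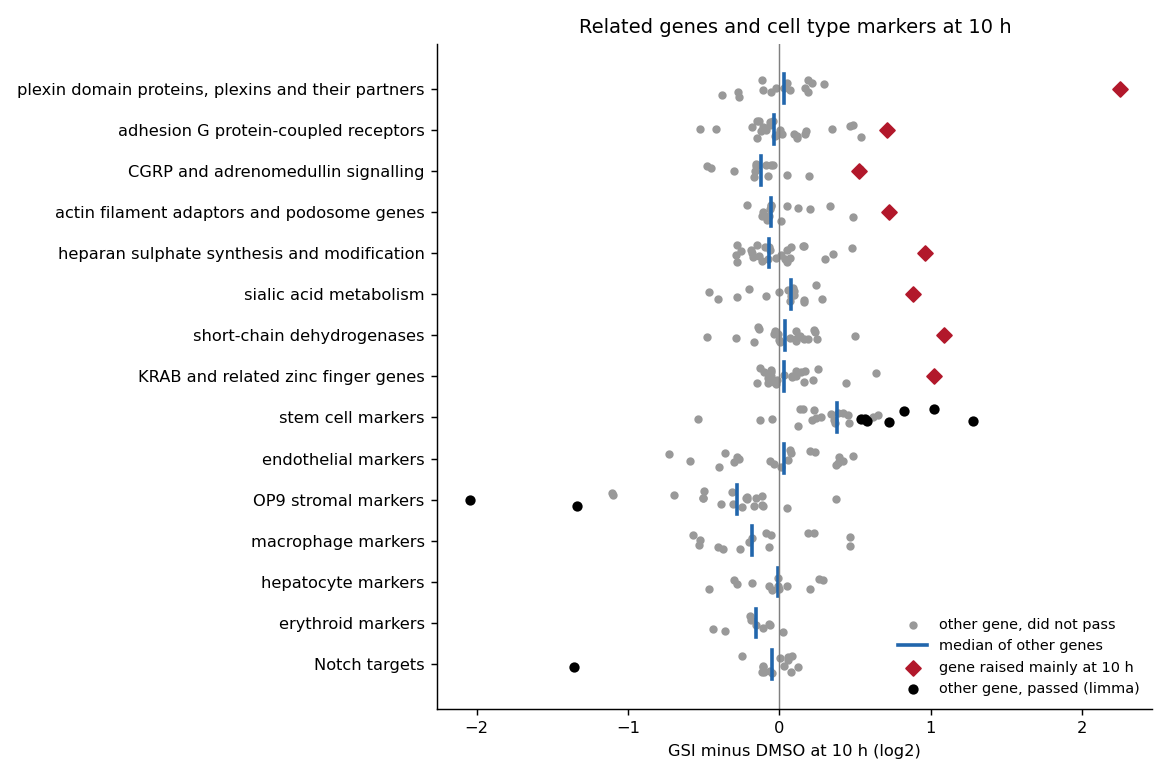
GSI minus DMSO at 10 h (log2, horizontal axis) of the 8 genes that belong to a family or pathway list (red diamonds; Tmem141 is in none), of the other genes of each list (grey dots, or black where limma called them), and the median of the other genes (blue line). Each diamond lies to the right of all other genes of its list, apart from Calcrl at 0.53, beside Ramp1 at 0.53, and black dots appear in the stem cell, OP9 stromal and Notch target lists.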

How the data were processed

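Expression was measured on 22 arrays of sorted mouse fetal liver cells, 1 sample to each 1-colour array. Values were deposited on the log2 scale, and the submitters' processing notes name Partek 6.6 and RMA; the sources do not say if the 10 h and 4 h arrays were normalized as one set. Of 41345 probes, 23521 had 1 gene symbol; the 1814 with several and the 16010 without one were not analysed. Where a gene had more than 1 such probe (1082 genes), its brightest by mean stood for it, giving 22180 genes. The array's genome build is not given in the sources used here; neighbours and promoters come from RefSeq tables of GRCm38.p6.

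GSI minus DMSO was fitted with limma 3.58.1 in R 4.3.3 (lmFit, eBayes with an intensity trend) to all arrays with the pair as a fixed block, and adjusted after Benjamini and Hochberg over all genes, with a threshold of 0.05. Pair means were tested with limma after quantile normalization over 22 arrays, without a term for the code set. The fits were tested on simulated data. The pairing comes from the series' design text: deviations of DMSO arrays and their own GSI partners correlated with r of 0.213 to 0.449 at 10 h and 0.223 to 0.872 at 4 h, where pair 4 (0.223) correlated better with another array than with its partner. No 2 arrays correlated above 0.994. The rule for named genes took the 9, Hes1, the genes of each list that passed or else its highest and lowest at 10 h, the nearest neighbours, the most alike genes and the 5 other genes with the largest excess at 10 h. Close relatives and partners of the 9 in the family lists (Plxdc1, Adgrl1 to Adgrl3, Ramp2, Ramp3, Adm, Afap1, Afap1l2, Ext1, Ext2, Extl2 and Gne) fall outside it and were chosen after their values were seen. So does Ifitm1, the lowest stem cell marker, which was also named after its value was seen. The genes and lists were chosen with earlier results of these data known. Alternatives were no pair block, other normalizations, spread set by time, each time or code set alone, the code set as a random block for pair means, no intensity trend, a filter on low means, all probes, and leaving out each pair.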

Additional observations from a re-analysis of the deposited data

Results flagged for a closer look

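Of 54 groups of values of the 9 genes, 4 held an array far from the others by Dixon's test, where about 1 in 20 such groups would be picked out by chance. Npl on the arrays of pair 6 at 4 h read 8.70 with GSI and 8.77 with DMSO, against group medians of 7.31 with GSI and 7.55 with DMSO. Afap1l1 with GSI at 10 h was highest in pair 2 (7.68, group median 7.28), which was also its highest DMSO array. Tmem141 with DMSO at 10 h was lowest in pair 4 (3.89, group median 4.40), which was also its lowest GSI array. No within-pair difference of the 9 genes was picked out.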

How the results depend on the processing

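Each of the 9 genes was chosen by its 10 h values and was higher with GSI in 4 of 4 pairs there. Leaving out pairs or changing the fit therefore could not turn the sign of its mean difference at 10 h, which also stayed after the other normalizations. Zfp773 has no value where genes with a mean of 5 or less were left out. Over the settings Plxdc2 ran from 1.95 to 2.55, Calcrl from 0.43 to 0.61, and Npl from 0.50 to 1.27. The counts over all genes, which serve as background, varied between settings. At 10 h, 148 genes were called; the count was 91 without the intensity trend, 64 after cyclic loess, 36 after quantile normalization, 19 with the spread set by time, 2 with the 10 h arrays alone, 284 among genes with a mean above 5, 15 in code set 2 alone and 0 in code set 1 alone (1217 at an unadjusted p under 0.05). Leaving out a pair gave 27 to 228: 48, 228 and 27 without pair 1, 2 or 4 of 10 h, and 68, 72, 69 and 62 without pair 2, 3, 5 or 7 of 4 h. At 4 h, 1 gene was called; 3 were with the spread set by time, 2 with the 4 h arrays alone, 148 in code set 2 alone, and 1 to 3 when a pair was left out (3 without pair 6 of 4 h, 2 without pair 4 of 10 h). For the difference between times, 4 were called, all of them among the 9 genes; the count was 2 after cyclic loess, 0 after quantile normalization (1845 at an unadjusted p under 0.05), 0 with the spread set by time (1638), and 0 to 7 when a pair was left out: 0 without pair 1, 4, 5, 6 or 7 of 4 h, 1 without pair 2 of 4 h or pair 2 or 4 of 10 h, 1 in the opposite direction, so none of the 9, without pair 1 of 10 h, and 7 without pair 3 of 10 h. Without the replicate block no gene was called by limma at 10 h (0; 1363 at an unadjusted p under 0.05), at 4 h (0; 360) or for the difference (0; 814), since differences between cultures then enter the spread. Pair means gave 10094 calls (5705 higher), 15692 with the values as deposited (561 higher), 13659 with each array centred on its median (10861 higher), 5493 among genes with a mean above 5, and 8688 to 10231 when a pair was left out. The fits with a shared spread assume that both times vary alike. The SD of the within-pair differences was larger at 10 h than at 4 h for all of the 9 genes but Extl3 and Tmem141. It was 0.213 against 0.0981 for Adgrl4, 0.226 against 0.0947 for Calcrl and 0.540 against 0.203 for Npl. The reverse held for Extl3 (0.230 against 0.262) and Tmem141 (0.234 against 0.287). Where the 10 h SD was the larger, the SE from the fit may be too small for the 10 h difference. The counts for marker lists under other settings were added after the data were seen. No second probe with a single symbol existed for any of the 9 genes, so that alternative gave no value. The causes of these shifts were not tested. With no detection calls, the reliability of low values such as those of Zfp773 was not examined.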
